A study of Mus musculus with 15 samples.

Results

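The 9 genes described here encode alternative forms of 4 glycolytic enzymes: the hexokinases Hk1 and Hk2, the phosphofructokinases Pfkl, Pfkm and Pfkp, the aldolases Aldoa and Aldoc, and the lactate dehydrogenases Ldha and Ldhb. They were taken by name from an expression table of the mouse cecum, and all 9 were among its 24279 genes with a value above 0 and among the 11971 genes tested. Ceca of wild-type (WT) male C57BL/6 mice, labelled as 20 weeks old, were compared after oral gavage for 30 days. The 7 mice with antibiotic-induced microbiome depletion (AIMD) had received ampicillin, vancomycin, neomycin, metronidazole and the antifungal amphotericin B every 12 h, and the 8 vehicle-treated (vehicle) mice had received water on the same schedule. Each library came from the emptied cecum wall of 1 mouse, with epithelium, muscle, nerves and immune cells together, and the cecum of mice on such a cocktail is known to enlarge. Depth was 8676365 to 18102743 gene-assigned reads in AIMD mice and 4370757 to 14402045 in vehicle mice. Values are FPKM, fragments per kilobase of gene length scaled to sequencing depth, so that levels of different genes can be set side by side, and the share of an isoform is its percent of the summed FPKM of the listed genes of its step.

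Glycolysis turns glucose into pyruvate, and lactate dehydrogenase then interconverts pyruvate and lactate. Several steps can be carried out by enzymes from different genes that catalyse the same reaction but differ in kinetics, regulation and the tissues that use them. Hexokinase commits glucose to metabolism, with Hk1 the widespread form and Hk2 the inducible form of muscle, fat and growing cells. Phosphofructokinase is the main control point of the pathway and works as a tetramer of liver (Pfkl), muscle (Pfkm) and platelet (Pfkp) subunits. Lactate dehydrogenase is a tetramer as well, in which the A subunit (Ldha) prevails in tissues that release lactate and the B subunit (Ldhb) in heart and other tissues that oxidise it. Colonic and cecal epithelium is known to burn butyrate made by bacteria, and the comparison asks which forms of these enzymes the cecum expressed when bacteria were depleted.

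Composition changed in 3 of the 4 steps. The hexokinase step gained Hk2, the phosphofructokinase step gained Pfkp and lost Pfkm, lactate dehydrogenase gained Ldha and lost Ldhb, and Aldoa, which carried nearly all of the listed aldolase expression, did not pass the test. Of the 9 genes, 5 were higher in AIMD mice (Hk1, Hk2, Pfkp, Aldoc and Ldha), 2 were lower (Pfkm and Ldhb), and Pfkl and Aldoa passed in neither direction (limma, adjusted p under 0.05). Among all 11971 tested genes 19.4% were higher and 16.6% lower by the same rule. In 3 of the 9 genes (Hk2, Pfkp and Ldha) no AIMD mouse overlapped with a vehicle mouse, against 8.56% of all tested genes.

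**Figure D1:**
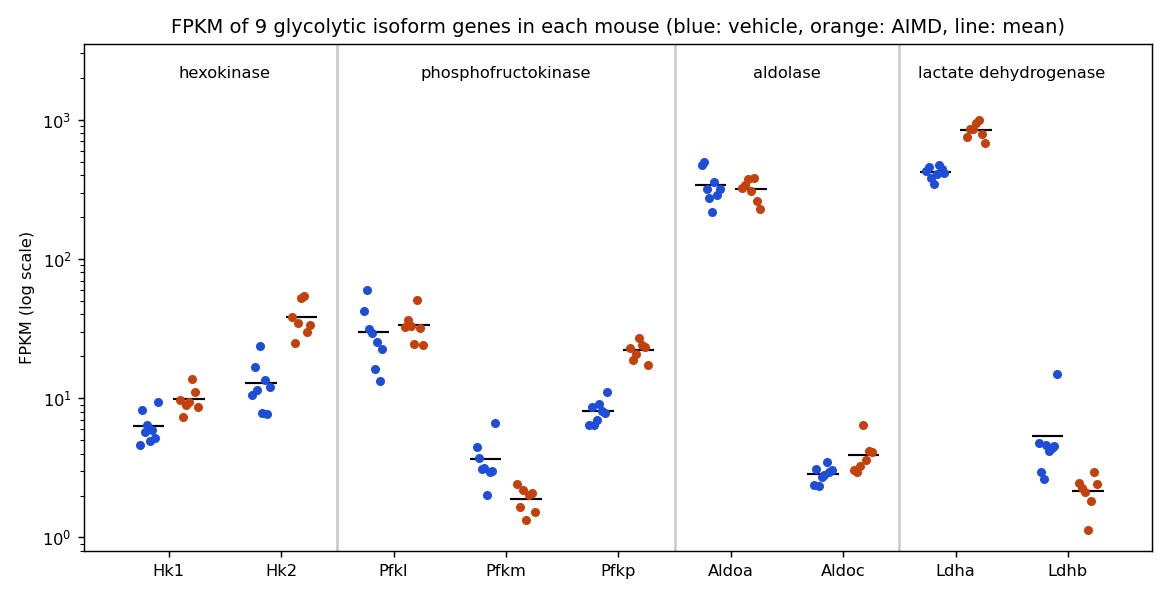
FPKM of the 9 isoform genes, with 1 point per mouse on a log scale (blue for the 8 vehicle mice, orange for the 7 AIMD mice) and a line at each group mean. Hk2, Pfkp and Ldha have no overlap between the groups, and vehicle replicate 8 stands alone at 14.98 FPKM of Ldhb.

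Promoters of Hk2 and of the contrasting pairs Pfkl and Pfkp and Ldha and Ldhb are shown because enzymes of 1 step are read from separate genes with separate regulatory sequence. The sequences are RefSeq promoter windows of GRCm38.p6, each running from upstream of an annotated start into the gene, printed 5′ to 3′ on the strand of the gene. All 9 genes matched, with 17 windows in all, since several genes have more than 1 annotated start. Capitals mark the letters ACGTG and GCGTG on either strand, the core that hypoxia-inducible factors are known to bind. A part of them lies in CACGTG, the E-box, which holds ACGTG on both strands and is known as a site of MYC and of the circadian CLOCK and BMAL1 proteins.
Hk2 (chr6:82774405-82774704, minus strand): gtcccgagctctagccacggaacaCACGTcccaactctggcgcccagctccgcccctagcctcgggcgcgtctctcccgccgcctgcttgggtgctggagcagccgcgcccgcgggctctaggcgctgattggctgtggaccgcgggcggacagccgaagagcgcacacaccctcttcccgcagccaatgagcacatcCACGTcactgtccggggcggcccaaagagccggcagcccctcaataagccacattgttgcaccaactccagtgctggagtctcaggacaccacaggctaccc
Pfkl (chr10:78009758-78010057, minus strand): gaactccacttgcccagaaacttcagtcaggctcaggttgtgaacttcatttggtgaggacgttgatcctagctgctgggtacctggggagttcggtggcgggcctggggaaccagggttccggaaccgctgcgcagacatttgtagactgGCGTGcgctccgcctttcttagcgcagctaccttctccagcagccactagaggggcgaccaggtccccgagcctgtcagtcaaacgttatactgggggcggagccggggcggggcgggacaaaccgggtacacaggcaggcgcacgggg
Pfkp (chr13:6648722-6649021, minus strand): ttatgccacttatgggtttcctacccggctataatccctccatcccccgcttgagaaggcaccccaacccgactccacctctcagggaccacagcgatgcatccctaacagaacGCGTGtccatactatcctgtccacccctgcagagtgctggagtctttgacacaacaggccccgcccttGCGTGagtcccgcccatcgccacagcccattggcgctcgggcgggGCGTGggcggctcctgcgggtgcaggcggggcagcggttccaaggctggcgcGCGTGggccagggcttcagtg
Ldha (chr7:46845554-46845853, plus strand): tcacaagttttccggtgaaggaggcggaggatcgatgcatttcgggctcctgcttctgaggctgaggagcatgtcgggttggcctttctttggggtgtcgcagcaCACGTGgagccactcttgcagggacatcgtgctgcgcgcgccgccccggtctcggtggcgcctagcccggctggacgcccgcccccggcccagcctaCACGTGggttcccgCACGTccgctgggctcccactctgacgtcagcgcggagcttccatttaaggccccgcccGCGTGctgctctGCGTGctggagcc
Ldhb (chr6:142507908-142508207, minus strand): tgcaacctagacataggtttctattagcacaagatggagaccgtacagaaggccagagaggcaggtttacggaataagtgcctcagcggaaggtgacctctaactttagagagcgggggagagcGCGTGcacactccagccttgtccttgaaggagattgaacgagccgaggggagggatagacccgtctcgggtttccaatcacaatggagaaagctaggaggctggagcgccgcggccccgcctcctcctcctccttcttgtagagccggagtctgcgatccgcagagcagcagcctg
The Ldha window held 2 copies of CACGTG, 1 further ACGTG and 2 of GCGTG, and the Ldhb window held a single GCGTG. Pfkp had 4 copies of GCGTG, Pfkl had 1, and Hk2 had 2 of ACGTG. Of the Hk1 windows, which are not printed, 1 held 2 of ACGTG and 3 of GCGTG and the other held neither. Of the Pfkm windows, also not printed, 1 held 1 copy of CACGTG and 1 further ACGTG. Either core was found in 14 of the 17 windows and in at least 1 window of all 9 genes, whichever way they moved, and in 43.8% of all 32851 promoter windows. ACGTG alone was in 8 of the 17 windows and 19.6% of all windows, GCGTG in 10 and 32.4%. CACGTG was in 2 (Ldha and 1 window of Pfkm) and 7.15%. Windows of 1 gene can overlap, as for Aldoa and Pfkm, and the same copy is then counted in more than 1 window. The window counts are thus not counts of separate copies. These matches describe letters in a window and not bound sites.

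The hexokinase step rose through Hk2. This gene, on chr6:82725025-82774454, had 24.9, 34.4 and 54.0 FPKM (lowest, median and highest) in the 7 AIMD mice and 7.72, 11.7 and 23.5 in the 8 vehicle mice. The lowest AIMD mouse lay just above the highest vehicle mouse, replicate 4, which itself stood apart from the other vehicle mice at 16.8 or less. The means were 38.2 ± 11.0 (SD, n = 7) and 12.9 ± 5.19 (SD, n = 8), a ratio of 2.95 and a log2 fold change of 1.56 (standard error [SE] 0.22, limma adjusted p = 6.58e-05). Log2 fold changes here are differences of mean log2(FPKM + 0.5), which understate the change of genes with low values.

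Hk1, on chr10:62268855-62379908, also rose, but by less. It had 7.38, 9.46 and 13.8 FPKM in AIMD mice and 4.62, 5.81 and 9.36 in vehicle mice, so the groups overlapped. The highest vehicle mouse was replicate 8, the mouse with the most smooth muscle and nerve RNA. The log2 fold change of Hk1 was 0.62 (SE 0.16, limma adjusted p = 0.00544). The summed Hk1 and Hk2 level was 48.1 ± 12.4 FPKM (SD, n = 7) under AIMD and 19.2 ± 6.03 (SD, n = 8) with vehicle, and of the difference of 28.9 FPKM, 25.3 came from Hk2 and 3.58 from Hk1.

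As a share, Hk2 went from a mean of 66.2% ± 6.91 (SD, n = 8) of the 2 hexokinases in vehicle mice to 79.0% ± 3.50 (SD, n = 7) under AIMD. The difference of 12.9 percentage points exceeded what the spread between mice gives (exact permutation test over 6435 splits, two-sided, p = 0.00109). Of the 7 AIMD mice, 5 had a higher share than every vehicle mouse. The highest vehicle share, 78.5%, was again that of replicate 4. Hk2 exceeded Hk1 in all 15 mice, by a median of 3.90 times in AIMD mice and 2.02 times in vehicle mice. In total 6 shares were tested, and their p-values are not adjusted for that number.

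A further hexokinase of the gut epithelium, Hkdc1, did not pass the test. It had 11.6 ± 2.79 FPKM (SD, n = 7) under AIMD and 11.2 ± 3.38 (SD, n = 8) with vehicle, a log2 fold change of 0.08 (SE 0.19, limma adjusted p = 0.756). With Hkdc1 added to the sum, Hk2 made up 63.5% of these 3 hexokinases in AIMD mice and 42.0% in vehicle mice. Hkdc1 made up 19.7% and 37.3%, and Hk1 16.8% and 20.6%. Vehicle replicates 5, 7 and 8 were at 29.5% to 31.7% Hk2 in this wider sum, vehicle replicate 4 was at 63.2%, and the AIMD mice were at 56.1% to 72.1%.

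**Figure D2:**
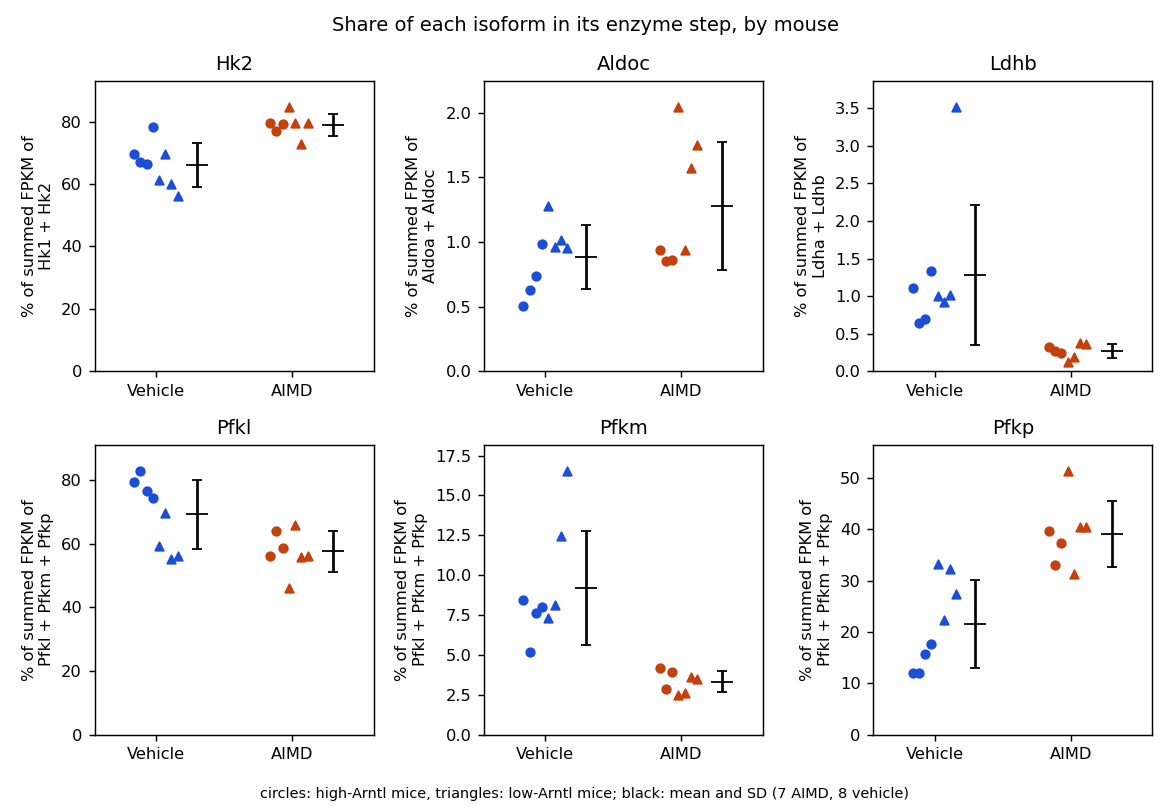
Percent of the summed FPKM of its enzyme step held by each tested isoform, with 1 point per mouse (circles for high-Arntl and triangles for low-Arntl mice, 2 sets defined by clock genes) and the mean and SD of each group in black. The shares of Pfkm and Ldhb do not overlap between the groups, and vehicle replicate 8 has the highest value of both, at 16.5% and 3.51%.

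Phosphofructokinase changed in composition, with more Pfkp and less Pfkm. Pfkp, the platelet form, on chr13:6579768-6648777, had 17.4, 23.0 and 27.2 FPKM in AIMD mice and 6.39, 7.97 and 11.0 in vehicle mice. The groups were well apart, and the values within each were close together. The log2 fold change was 1.41 (SE 0.13, limma adjusted p = 9.06e-07), the lowest adjusted p among the 9 genes. Its mean level under AIMD was 2.74 times that with vehicle.

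Pfkl, the liver form, on chr10:77986947-78010083, had 24.1, 32.4 and 50.4 FPKM in AIMD mice and 13.4, 27.4 and 59.6 in vehicle mice. The vehicle mice covered a wider range than the AIMD mice and enclosed them at both ends. The log2 fold change of 0.25 (SE 0.26, limma adjusted p = 0.473) did not pass the test, and with this standard error a moderate change in either direction could be missed.

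Pfkm, the muscle form, on chr15:98092589-98132451, fell. It had 1.33, 2.02 and 2.41 FPKM in AIMD mice and 2.01, 3.14 and 6.66 in vehicle mice. A single vehicle mouse, replicate 5 at 2.01, lay within the AIMD range. The log2 fold change was -0.75 (SE 0.18, limma adjusted p = 0.00430). These values rest on few reads, 33 to 126 per AIMD mouse and 31 to 150 per vehicle mouse.

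In shares, Pfkp made up 39.1% ± 6.503 (SD, n = 7) of the step in AIMD mice and 21.6% ± 8.59 (SD, n = 8) with vehicle, a difference of 17.5 percentage points (exact permutation test, two-sided, p = 0.00140). Pfkm made up 3.32% ± 0.651 (SD, n = 7) and 9.21% ± 3.58 (SD, n = 8), and the difference of -5.88 points (exact permutation test, two-sided, p = 0.000311) came with no overlap, since the highest AIMD mouse was at 4.17% and the lowest vehicle mouse at 5.17%. Pfkl made up 57.6% ± 6.48 (SD, n = 7) and 69.2% ± 10.9 (SD, n = 8), a difference of -11.6 points (exact permutation test, two-sided, p = 0.0305). This last call was lost without AIMD replicate 4 or without vehicle replicate 1, 2, 3 or 4, with differences of -9.72, -10.2, -9.69, -10.6 and -10.9 points.

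The summed phosphofructokinase level was 57.2 ± 9.94 FPKM (SD, n = 7) under AIMD and 41.7 ± 15.04 (SD, n = 8) with vehicle, with overlap. Pfkp gave 14.01 of the difference of 15.6 FPKM, Pfkl gave 3.30 and Pfkm took away 1.75. The ratio of Pfkp to Pfkm, 9.51 to 20.5 in AIMD mice, was above its range of 1.43 to 4.53 in vehicle mice. The ratio of Pfkl to Pfkp had medians of 1.41 and 3.67, and its ranges overlapped.

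Which phosphofructokinase prevailed depends on the gene length used. The lengths behind the deposited FPKM were inferred from the values. They were 9395 bases for Pfkp and 8532 for Hk1, 2.27 and 2.22 times the length of the principal annotated transcript. That of Hk1 is its annotated exon length, and that of Pfkp was found by search. Pfkl and Hk2 were divided by 1.18 and 1.08 times the length of their principal transcript. By the deposited FPKM, Pfkl was the highest form in 6 of 7 AIMD mice and 8 of 8 vehicle mice. With principal transcript lengths, Pfkp was the highest in 5 AIMD and 2 vehicle mice, with mean shares of 55.2% ± 6.59 (SD, n = 7) and 34.3% ± 11.6 (SD, n = 8). Hk1 was then the higher hexokinase in 4 of 8 vehicle mice and in no AIMD mouse. The differences between the groups kept their sign and their side of 0.05 for all 6 shares with these lengths, and Pfkp gained 20.9 percentage points.

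**Figure D3:**
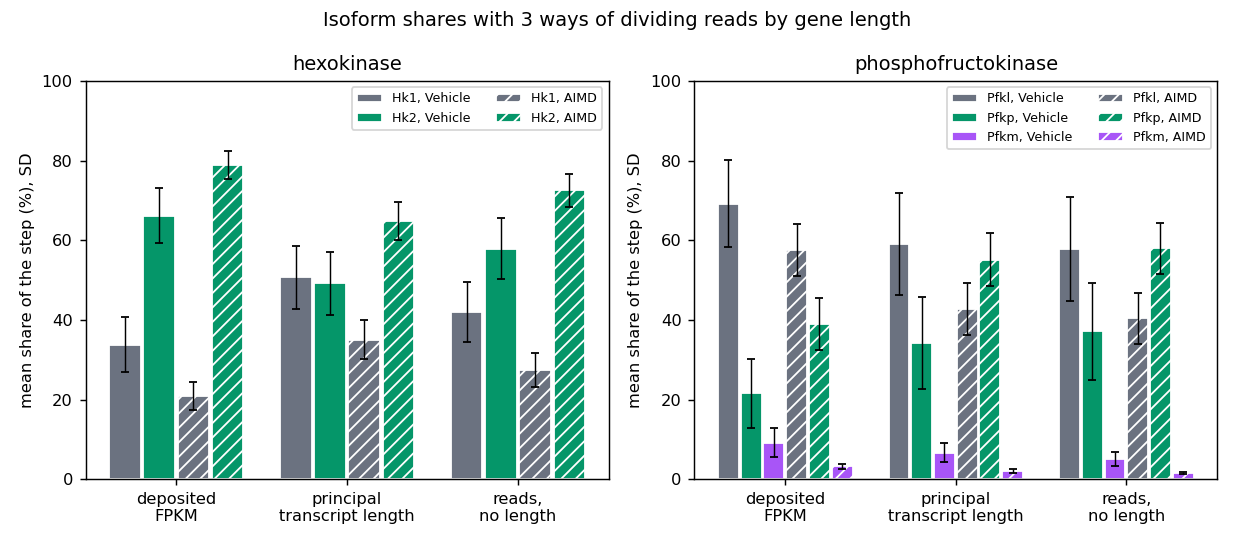
Mean share of each hexokinase and phosphofructokinase (bars from 0, SD as error bars, plain for the 8 vehicle and hatched for the 7 AIMD mice) by deposited FPKM, with reads divided by principal transcript length, and by reads with no length. Pfkl leads in AIMD mice by deposited FPKM (57.6% against 39.1% for Pfkp) and Pfkp leads with principal transcript lengths (55.2% against 42.7%).

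Aldolase, which splits fructose 1,6-bisphosphate, showed little change in its listed forms. The share given is of Aldoa and Aldoc alone, so it is not a share of all aldolase expression. Aldoa, the widespread form, on chr7:126795234-126800751, had 230, 324 and 378 FPKM in AIMD mice and 218, 317 and 494 in vehicle mice. The ranges lay over each other, and the log2 fold change of -0.09 (SE 0.18, limma adjusted p = 0.724) did not pass the test and took the other sign under 2 other scalings.

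Aldoc, best known from brain, on chr11:78322968-78327781, was low, with 2.96, 3.57 and 6.37 FPKM in AIMD mice and 2.33, 2.89 and 3.46 in vehicle mice. AIMD replicate 4 was the high value, and the next AIMD mouse was at 4.16. The log2 fold change of 0.37 (SE 0.14, limma adjusted p = 0.0478) was just past the threshold. Without AIMD replicate 4 it was 0.26 (limma adjusted p = 0.0928), and it was also lost without AIMD replicate 5, 6 or 7 or vehicle replicate 1, 3, 4, 5 or 7, at 0.33 to 0.38. The share of Aldoc, 1.28% ± 0.497 (SD, n = 7) against 0.881% ± 0.247 (SD, n = 8), did not pass (exact permutation test, two-sided, p = 0.0695). It passed when AIMD replicate 1, 2, 3 or 5 was left out, at 0.455 to 0.468 percentage points. The median share was 0.935% in AIMD mice and 0.957% in vehicle mice, the other way from the means.

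Lactate dehydrogenase rose almost entirely as Ldha, the most abundant of the 9 genes in both groups. Ldha, on chr7:46841475-46855627, had 676, 855.2 and 1002 FPKM in AIMD mice and 345, 419 and 476 in vehicle mice. Every AIMD mouse was above every vehicle mouse. The mean level of the step rose 1.99 times, from 424 ± 42.0 (SD, n = 8) to 842 ± 113 FPKM (SD, n = 7), and the log2 fold change of Ldha was 1.00 (SE 0.12, limma adjusted p = 1.47e-05).

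Ldhb, on chr6:142490249-142507957, went the other way from a low level. It had 1.14, 2.26 and 2.93 FPKM in AIMD mice and 2.64, 4.47 and 14.98 in vehicle mice, with 15 to 68 and 31 to 104 reads per mouse. The groups overlapped at a single vehicle mouse (replicate 3), and replicate 8 was far above the next vehicle mouse at 4.80. The log2 fold change was -0.99 (SE 0.26, limma adjusted p = 0.00747), and without vehicle replicate 8 it was -0.77 (limma adjusted p = 0.00195). Of the 50-base windows of Ldhb, 20.99% also occur in the predicted gene Gm5514, so that its reads are less certain than those of the other members.

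Ldhb made up 0.266% ± 0.0924 (SD, n = 7) of lactate dehydrogenase in AIMD mice and 1.28% ± 0.930 (SD, n = 8) with vehicle, a difference of -1.01 percentage points (exact permutation test, two-sided, p = 0.000466). The highest AIMD mouse was at 0.371% and the lowest vehicle mouse at 0.642%, so the shares did not overlap although the levels did. Without vehicle replicate 8 the difference was -0.691 points (exact permutation test, two-sided, p = 0.000583). Ldha exceeded Ldhb by 269 to 838 times in AIMD mice and 27.5 to 155 times in vehicle mice. Ldhb was thus at most 3.51% of the listed lactate dehydrogenase RNA in any mouse. The testis form Ldhc was listed at 0 in all 15 mice.

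The order of mean levels by deposited FPKM, which depends on the gene lengths used, also differed between the groups. In AIMD mice it ran Ldha, Aldoa, Hk2, Pfkl, Pfkp, Hk1, Aldoc, Ldhb and Pfkm, and the ranges of Hk2 and Pfkl, of Pfkl and Pfkp, and of Ldhb and Pfkm overlapped. In vehicle mice it ran Ldha, Aldoa, Pfkl, Hk2, Pfkp, Hk1, Ldhb, Pfkm and Aldoc, and only Aldoa and Pfkl were neighbours with separate ranges. Ldha was above Aldoa in 7 of 7 AIMD mice and in 6 of 8 vehicle mice. Hk2 was above Pfkl in 5 of 7 AIMD mice and in none of the 8 vehicle mice. With principal transcript lengths, Pfkp came before Pfkl in 5 of 7 AIMD mice.

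Pfkm and Ldhb, the 2 members that fell, were highest in the mouse with the most muscle and nerve RNA, vehicle replicate 8. Among vehicle mice, Hk1 and Pfkp, which rose under AIMD, were also highest in that mouse, at 9.36 and 11.0 FPKM. The summed FPKM of 10 smooth muscle markers (Acta2, Myh11, Tagln and others) ranged from 229 to 838 in AIMD mice and from 540 to 3165 in vehicle mice. Vehicle replicate 8 held the highest value, and the next vehicle mouse was at 1422. Of these markers 0 were higher and 2, Tagln and Synm, were lower in AIMD mice. Of 12 enteric neuron and glia markers, 7 were tested and 6 were lower (Tubb3, Uchl1, Snap25, S100b and Gfap among them). Their summed FPKM was 9.04 to 32.4 in AIMD mice and 10.7 to 109 in vehicle mice, with vehicle replicate 8 at 109 and the next at 40.8. Chat, of cholinergic neurons, had a median of 0 in both groups.

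In whole-tissue RNA, fewer cells of a type and less RNA per cell cannot be told apart. With the mean log2 level of the smooth muscle markers as a covariate, the log2 fold change of Pfkm was -0.43 (limma adjusted p = 0.0433) and that of Ldhb was -0.42 (limma adjusted p = 0.0584), in place of -0.75 and -0.99. With the neuron and glia markers it was -0.38 for Pfkm (limma adjusted p = 0.285) and 0.07 for Ldhb (limma adjusted p = 0.846). Median marker sums were 666 and 1099 FPKM for muscle and 13.2 and 34.1 for nerve (AIMD and vehicle), so these fits separate treatment and tissue content only in part. Hk1, Hk2, Pfkp and Ldha kept their calls under both covariates, with log2 fold changes of 0.77 and 0.85 for Hk1, 1.504 and 1.47 for Hk2, 1.46 and 1.66 for Pfkp, and 0.98 and 0.97 for Ldha. Aldoc lost its call under both, at 0.28 (limma adjusted p = 0.197) and 0.46 (limma adjusted p = 0.124).

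**Figure D4:**
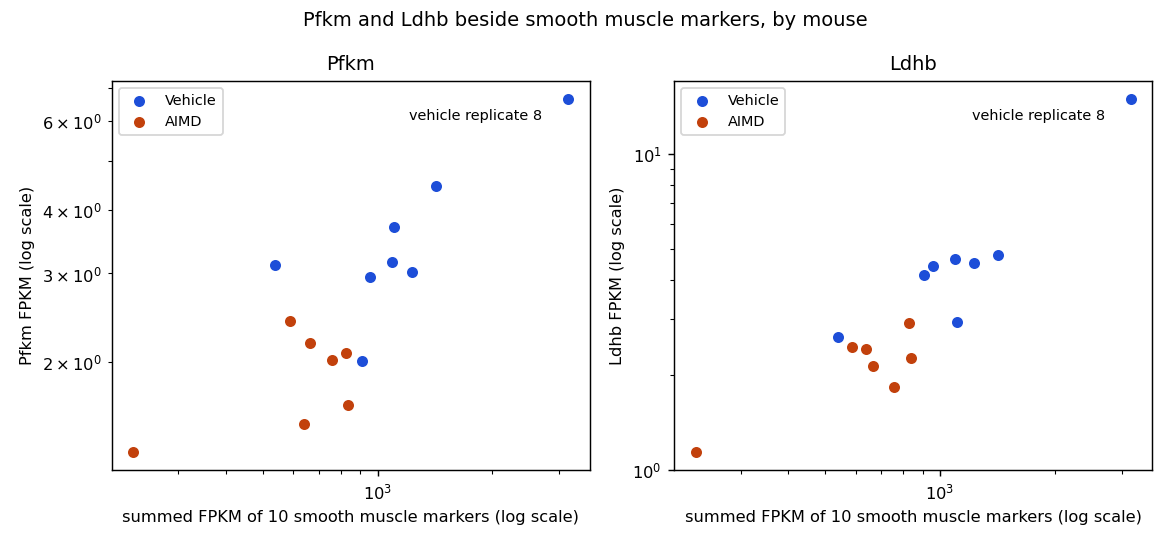
FPKM of Pfkm and Ldhb against the summed FPKM of 10 smooth muscle markers, both on log scales, with 1 point per mouse (blue for vehicle, orange for AIMD). Vehicle replicate 8 is at the upper right of both panels, at 3165 for the markers, 6.66 for Pfkm and 14.98 for Ldhb.

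Markers of other cell types gave mixed results. Of 8 epithelial markers 3 were higher (Krt8, Vil1 and Cldn7) and Krt18 was lower, with sums of 4512 to 7084 FPKM in AIMD mice and 3771 to 5752 in vehicle mice, so the labelled tissue was rich in epithelium in every mouse. Of 10 immune cell markers 2, Lyz2 and Cd68, were higher, and the sums were 61.2 to 236 and 45.05 to 92.1. Of 8 fibroblast and endothelial markers 1, Col3a1, was higher, and of 5 blood cell markers 2, Hba-a1 and Hbb-bt, were lower. The part of these cells in the isoform levels was not tested.

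The mice also fell into 2 sets by their clock genes. The first principal component of 12 clock genes, centred within groups, held 93.6% of their variance and put AIMD replicates 1 to 3 and vehicle replicates 1 to 4 on the side with high Arntl, the gene of BMAL1, and the other mice on the side with low Arntl. The labels used here give no time of sacrifice. The authors' own fit took time of sacrifice into account beside treatment, and the main limma fit here left it out. Between these sets 0 of the 9 genes differed by limma (against 16.4% of all tested genes), and 2 of 9 did at an unadjusted p under 0.05, a threshold that 4098 of the 11971 tested genes passed. These were Pfkl, with a log2 difference of 0.61 (high minus low Arntl, limma adjusted p = 0.0642), and Aldoc, with -0.32 (limma adjusted p = 0.0688).

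Share differences between AIMD and vehicle mice had the same sign in both sets for all 6 shares. The Hk2 share was higher by 8.22 percentage points among high-Arntl mice and by 17.4 among low-Arntl mice. For Pfkp the differences were 22.3 and 12.1 points, for Pfkm -3.65 and -8.04, for Aldoc 0.173 and 0.524, and for Ldhb -0.664 and -1.35. For Pfkl they were -18.7 and -4.06, since its share among vehicle mice was 78.3% ± 3.66 (SD, n = 4) with high and 60.1% ± 6.56 (SD, n = 4) with low Arntl. The level of Pfkl in vehicle mice was 40.6 ± 13.8 FPKM (SD, n = 4) and 19.4 ± 5.52 (SD, n = 4), against 34.0 ± 2.32 (SD, n = 3) and 32.8 ± 12.3 (SD, n = 4) in AIMD mice. Whether the effect of AIMD differs between the sets was not tested.

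Beyond these 4 steps, 8 of 11 listed genes of other glycolytic steps were tested, 5 were higher in AIMD mice and 0 were lower. Their median log2 fold change was 0.76, beside 0.01 for all tested genes. Phosphoglycerate kinase Pgk1 (0.87), phosphoglycerate mutase Pgam1 (1.97), enolase Eno1 (1.24) and the pyruvate kinases Pkm (0.64) and Pklr (1.06) passed the test, the numbers being log2 fold changes. The isomerases Gpi1 and Tpi1 and the muscle enolase Eno3 did not, at -0.25, 0.20 and -0.37. The change of Pgam1 rests on low levels, 4.04 ± 1.27 FPKM (SD, n = 7) against 0.654 ± 0.310 (SD, n = 8), with the lowest vehicle mouse at 0.083. Eno1 had 11.2 ± 3.85 (SD, n = 7) against 4.48 ± 1.81 (SD, n = 8). Pklr, the liver and red cell form of pyruvate kinase, had 28.1 ± 4.17 FPKM (SD, n = 7) against 13.4 ± 3.28 (SD, n = 8) with no overlap, and Pkm, the more abundant form, had 171 ± 32.3 (SD, n = 7) against 111 ± 25.1 (SD, n = 8) with overlap. Gapdh, which nearly all cells express strongly, was listed at mean FPKM of 0.376 and 0.206 and was too low to be tested, and the cause was not tested. Values of genes with many near-identical copies are uncertain in a table like this. Of the 50-base windows of Ldha and Aldoa, 9.26% and 6.43% also occur in other annotated genes, mainly pseudogenes. For Pfkm it was 8.83%, shared with the predicted gene Gm26513, and for Pfkp 5.10%, shared with the gene Pitrm1. No such window was shared between 2 of the 9 members.

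Of 5 enzymes that set or remove fructose 2,6-bisphosphate, the activator of phosphofructokinase, only Pfkfb4 passed the test. It had 2.90 ± 0.956 FPKM (SD, n = 7) under AIMD and 1.16 ± 0.551 (SD, n = 8) with vehicle, a log2 fold change of 1.05 (SE 0.22, limma adjusted p = 0.00148). Of 4 listed enzymes that run the opposing reactions, 2 were tested and neither passed, the muscle fructose bisphosphatase Fbp2 at 0.33 (limma adjusted p = 0.164) and the glucose phosphatase G6pc3 at -0.35 (limma adjusted p = 0.289).

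Lactate carriers moved in opposite directions. Slc16a3 (MCT4), known as the carrier of cells that export lactate, had 1.41, 2.22 and 3.63 FPKM in AIMD mice and 0.201, 0.360 and 0.505 in vehicle mice, with no overlap and a log2 fold change of 1.71 (SE 0.15, limma adjusted p = 6.36e-07). Slc16a1 (MCT1), which carries lactate and butyrate and was far more abundant, fell from 513 ± 118 FPKM (SD, n = 8) to 273 ± 49.8 (SD, n = 7), a log2 fold change of -0.89 (SE 0.17, limma adjusted p = 0.000935). Basigin (Bsg), their partner at the membrane, had a log2 fold change of -0.53 (limma adjusted p = 0.0122). The glucose and fructose carriers Slc2a1, Slc2a5 and Slc5a1 did not pass, at -0.27, 0.06 and 0.31.

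Of 10 genes that govern the entry of pyruvate into mitochondria, 3 passed, all of them pyruvate dehydrogenase kinases. Pdk1 was higher, with 11.9 ± 2.71 FPKM (SD, n = 7) against 6.41 ± 0.949 (SD, n = 8) and a log2 fold change of 0.83 (limma adjusted p = 0.000261). Pdk4 was lower, with 3.48 ± 0.478 (SD, n = 7) against 9.64 ± 4.05 (SD, n = 8) and a log2 fold change of -1.28 (limma adjusted p = 7.14e-05). Neither Pdk1 nor Pdk4 overlapped between the groups. Pdk3 was lower with overlap, at -0.68 (limma adjusted p = 0.00376), and Pdk2 did not pass, at 0.42 (limma adjusted p = 0.134).

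**Figure D5:**
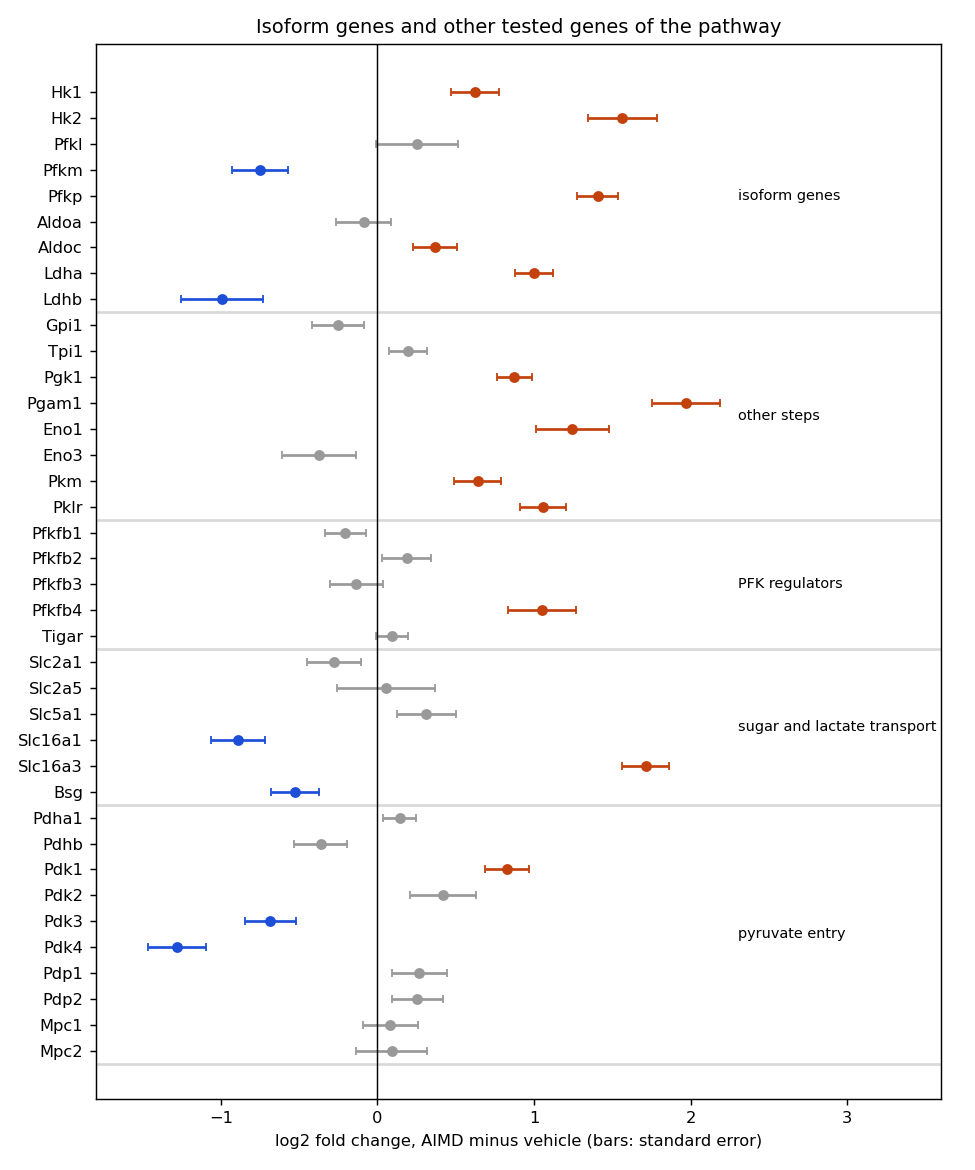
Log2 fold changes (AIMD minus vehicle, 7 and 8 mice) with standard errors for the 9 isoform genes and tested genes of other steps, phosphofructokinase regulators, transport and pyruvate entry, colored where the limma adjusted p was under 0.05 (orange higher, blue lower, grey not past it). Pgam1 (1.97) and Slc16a3 (1.71) are the farthest to the right and Pdk4 (-1.28) the farthest to the left.

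The genes whose levels followed 8 of the isoforms most closely across the 15 mice, after the group means were taken out, differed from step to step. The nearest to Hk2 was Zc3h4 (Pearson r of log2 levels 0.912), to Hk1 Rxra (0.956), to Pfkl B4galnt1 (0.968), to Pfkm Rtn2 (0.904) and to Pfkp Slc37a1 (0.884). The nearest to Aldoa was Mcoln1 (0.959), to Ldha Upb1 (0.828) and to Ldhb Art3 (0.970). Without vehicle replicate 8 the value for Ldhb and Art3 was 0.939. The search left out all listed genes, the muscle and nerve markers among them, and predicted-gene symbols (Gm or Rik). These values were picked as the highest among the remaining tested genes and share libraries and depth, so they are a description.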

How the data were processed

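RNA of whole emptied ceca was made into stranded poly(A) libraries. Per the labels, the authors aligned reads with STAR to GRCm38 and counted them with featureCounts. Versions and the strand setting are not given in the sources used here. The deposited table holds FPKM per gene. Gene lengths were inferred from the FPKM, with the annotated exon length of each gene tried first. That length gave whole reads (within 0.01 read) for 67.6% of genes. For the rest, the first length found that gave whole reads was kept, which brought the total to 99.96%. Many lengths can fit a gene of few reads, so this percentage does not measure how often the length is right. The 9 genes and all lists were chosen with earlier results of these data known. The text names all 9 genes, listed genes that passed the test or belong to the same family, and the gene most alike to each of 8 members. Some listed or matched items are not reported here. Replicates are separate mice, and replicate numbers do not pair them.

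Size factors from median ratios (1.01 in every mouse) scaled the FPKM. Genes with at least 0.5 FPKM in at least 7 mice (11971) were tested as log2(FPKM + 0.5) with limma 3.58.1 (R 4.3.3, trend, Benjamini-Hochberg, adjusted p under 0.05, two-sided). Shares were tested by exact permutation, written with numpy 2.4.6. The smallest two-sided p these 6435 splits allow is 0.000155. Library depth limits genes of few reads. Scripts were tested on simulated data. Other scalings, pseudocounts, filters, tests, covariates and left-out mice were tried. Principal transcript lengths from GENCODE M21, reads with no length and covariates of tissue content were added after the data were seen.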

Additional observations from a re-analysis of the deposited data

Results flagged for a closer look

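Of 38 groups of values tested for a single distant mouse, 3 held 1, and chance alone flags about 1 in 20. Vehicle replicate 8 was far above the other vehicle-treated mice in Ldhb, at 14.98 FPKM against 4.80 in the next mouse, and in the share of Ldhb, at 3.51% against 1.33%. This mouse also had the highest summed smooth muscle markers (3165 FPKM) and neuron and glia markers (109 FPKM). AIMD replicate 4 was far above the other AIMD mice in Aldoc, at 6.37 FPKM against 4.16 in the next mouse.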

How the results depend on the processing

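The Pfkl share, at -11.6 percentage points, lost its call with a rank-sum statistic (-11.6, exact permutation p = 0.0541) and with a replicate block (-13.5, exact p = 0.0625), and with a mouse left out ranged from -13.6 to -9.69. The Aldoc share passed within clock clusters (0.360 points, exact permutation p = 0.0314) and ranged from 0.271 to 0.468 with a mouse left out. With a rank-sum statistic it did not pass (exact permutation p = 0.397). The shares of Hk2, Pfkm, Pfkp and Ldhb kept their direction and call in every alternative that was run on shares. No share was tested with a covariate of tissue content, under which the levels of Pfkm (nerve markers) and Ldhb (muscle or nerve markers) lost their calls. With the neuron and glia covariate, 4 of the 9 genes and 2771 of all genes were called, against 7 and 4315 with no covariate and 5 and 3922 with the smooth muscle covariate. With nerve markers the log2 fold change of Ldhb became 0.0697 and that of Pfkl -0.2385. Aldoa became 0.0539 with quantile normalization and 0.0563 with upper quartile scaling. Upper quartile scaling moved the share of calls that were higher from 53.8% to 70.5% and the median of all genes to 0.13. Aldoc also lost its call with quantile normalization, without a filter, and with voom on recovered reads, which called 4450 genes (50.3% of them higher). The causes were not tested. The replicate block (7 pairs with the same number, whose deviations correlated at -0.35 to 0.43, with 1 of 7 pairs best matched to its own number) changed no other call. Pfkm, Ldhb and Aldoc are limited by few reads.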
